A study of Caenorhabditis elegans with 2 samples.

Results

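These results concern 390 regions of chromosome V of Caenorhabditis elegans in which eGFP-tagged PROS-1 was measured by chromatin immunoprecipitation and sequencing. The regions were chosen by the authors' own signal value: of 30000 candidate regions called on both replicates pooled, 5436 had their summit on chromosome V, and the 390 with a value of 15 or more were taken. Chromosome V was cut into 3 equal lengths of 6.97 Mb (ce11 coordinates). Summits in the outer lengths were called arm regions (223, of which 112 lay in the left arm and 111 in the right arm) and summits in the middle length were called centre regions (167). Both the signal value and the position therefore selected the members, and the counts of members, their signal values and their ranks are given as a description without a test.

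The material was whole late embryos of strain OP500, with the genotype unc-119(tm4063) III and the transgene wgIs500, male and female pooled per the labels. The transgene carries pros-1 fused to eGFP, so the protein followed was the tagged copy, and a whole embryo mixes all cell types. There were 2 biological replicates of 1 group, and no untagged, mutant or treated group was analysed here. The lists were called against a control that was not analysed here, and read depth is unknown. The signal value is a score relative to that control with no stated scale, so it was compared only within a list.

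PROS-1 is the worm member of the Prospero family of transcription factors, which carry an atypical homeodomain next to a Prospero domain. Fly Prospero is known for its role in neural progenitors and glia and mammalian PROX1 for its role in lymphatic vessels and other organs, while worm PROS-1 is known for its role in glia that surround sense organs. The arms of worm autosomes are known to recombine more, to hold more repeats and more of the rapidly changing gene families such as chemoreceptors, and to carry more heterochromatin marks. The centres are known to hold more conserved, broadly expressed and essential genes. Chromosome V is particularly rich in chemoreceptor genes.

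The strongest regions of each zone are printed first, since they show at base level what lies under the highest signal. The sequences are the summit base with 50 bases on each side, for the 5 arm and the 5 centre regions with the highest pooled signal value. They were read from the RefSeq genome of WBcel235 (the ce11 assembly), plus strand, 5′ to 3′. Capitals mark matches, on either strand, to GAGAGAG and to the Prospero-type motif, which was taken as AAGACG, a core known for mammalian PROX1, or its variant AAGGCG.
Left arm, upstream of W06H8.6, chrV:6227691-6227791: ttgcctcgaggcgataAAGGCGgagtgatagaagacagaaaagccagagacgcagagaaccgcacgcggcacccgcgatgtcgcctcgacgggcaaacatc
Left arm, in the non-coding gene T19F4.6, chrV:6879698-6879798: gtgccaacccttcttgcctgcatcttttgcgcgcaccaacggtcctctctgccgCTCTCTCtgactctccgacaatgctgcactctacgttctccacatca
Right arm, intergenic near pptr-1, chrV:16356045-16356145: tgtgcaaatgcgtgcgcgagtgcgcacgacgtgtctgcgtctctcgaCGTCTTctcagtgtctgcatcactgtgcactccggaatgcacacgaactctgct
Right arm, upstream of Y59A8B.24, chrV:17951365-17951465: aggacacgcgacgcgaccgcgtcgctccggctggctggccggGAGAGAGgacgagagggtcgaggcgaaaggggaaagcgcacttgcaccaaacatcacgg
Left arm, intron of W06H8.6, chrV:6224620-6224720: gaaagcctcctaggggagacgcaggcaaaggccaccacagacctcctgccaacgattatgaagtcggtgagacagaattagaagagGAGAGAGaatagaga
Centre, intron of frm-7, chrV:12303592-12303692: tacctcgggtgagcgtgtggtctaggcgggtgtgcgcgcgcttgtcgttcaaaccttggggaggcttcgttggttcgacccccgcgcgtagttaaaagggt
Centre, upstream of a start of drap-1, chrV:9731085-9731185: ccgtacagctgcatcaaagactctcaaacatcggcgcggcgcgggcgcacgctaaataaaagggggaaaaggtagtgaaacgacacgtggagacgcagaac
Centre, intron of cutl-18, chrV:11314182-11314282: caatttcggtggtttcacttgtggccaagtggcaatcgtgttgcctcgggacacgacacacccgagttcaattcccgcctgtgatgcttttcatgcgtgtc
Centre, upstream of a start of T28B11.1, chrV:10715887-10715987: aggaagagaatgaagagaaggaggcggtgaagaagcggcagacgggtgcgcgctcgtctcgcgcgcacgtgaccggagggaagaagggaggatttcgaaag
Centre, in the non-coding gene F22E12.9, chrV:10466738-10466838: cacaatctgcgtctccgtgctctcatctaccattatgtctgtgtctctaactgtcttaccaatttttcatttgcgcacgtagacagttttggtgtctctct

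Each of the 5 arm windows holds one of these motifs, and none of the 5 centre windows does. These few windows do not stand for the zones, and the shares over all members follow further on.

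The strongest region of the left arm, at chrV:6227579-6227854, had a pooled signal value of 105.5, with 17.5 in replicate 1 and 87.7 in replicate 2. It lay 731 bp upstream of a start of W06H8.6 and 191 bp from the snoRNA gene W06H8.17, a small nucleolar RNA of the class that guides modification of other RNAs. A further region in an intron of the same W06H8.6 gene, at chrV:6224508-6224831, had 75.3 (14.5 in replicate 1, 64.6 in replicate 2). The strongest region of the right arm, at chrV:16355933-16356256, had 81.7 (17.8 and 65.8). It lay between genes, with the nearest protein-coding start 1426 bp away at pptr-1, a regulatory subunit of the phosphatase PP2A. Both replicates thus had a summit at each of these 3 regions.

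The other strong arm regions lay in non-coding genes, between genes and at promoters. One, at chrV:6879586-6879909 with a pooled signal value of 88.8, lay in the non-coding gene T19F4.6, with unc-70, the worm beta-spectrin, as the nearest coding start at 1590 bp. Another, at chrV:1151316-1151639 with 75.1, lay in the long non-coding gene linc-128, 4793 bp upstream of cmd-1, which encodes calmodulin. One at chrV:18723652-18723975, with 51.1 (8.90 in replicate 1, 37.9 in replicate 2), lay between genes, 3827 bp from a start of Y17D7C.2. Promoter-window regions were found 534 bp upstream of Y59A8B.24 (80.1), 345 bp upstream of mrck-1 (74.9), a kinase acting on the actomyosin cytoskeleton, 6 bp upstream of Y43F8B.2 (67.8) and 280 bp upstream of unc-76 (47.3), which acts in axon outgrowth. The last of these had a value of 19.4 in replicate 1 and no summit within 100 bp in replicate 2.

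The strongest centre region, at chrV:12303545-12303710, had a pooled signal value of 105.4, with 22.6 in replicate 1 and 84.7 in replicate 2. It lay in an intron of frm-7, a FERM-domain gene, with its summit inside the snoRNA gene C51F7.4 and close to a second one, C51F7.3. A snoRNA gene lay within 200 bp of 1 of the 10 strongest arm regions and of 4 of the 10 strongest centre regions. In the centre the next was T03F7.8, 26 bp from the summit in an intron of the cuticlin-like gene cutl-18 (65.8). The others were F55A11.10, 30 bp from a summit at the start of F55A11.6 and F55A11.11 (47.6), and ZK994.7, 12 bp from a summit in an intron of pxn-1, which encodes a peroxidasin of the extracellular matrix (45.9).

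Other strong centre regions lay at promoters. One was 235 bp upstream of a start of drap-1, a homologue of the corepressor subunit DRAP1 (79.1 pooled, 5.44 in replicate 1, 74.0 in replicate 2). Others were 689 bp upstream of T28B11.1 (61.8), 245 bp upstream of the zinc-finger gene ztf-9 and 658 bp upstream of its neighbour ZK287.7 (53.8), 73 bp upstream of tos-1 (52.4) and 394 bp upstream of Y97E10AR.1 (45.0). The Y97E10AR.1 region had no replicate 1 summit within 100 bp. One lay in the non-coding gene F22E12.9, 1729 bp from egl-9, the oxygen-dependent prolyl hydroxylase that acts on HIF-1 (54.4).

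Candidates of the arms reached the threshold less often than those of the centre. In the arms 5.98% of candidates had 15 or more, against 9.79% in the centre and 9.01% over all chromosomes. By arm, 5.85% of 1914 candidates in the left arm and 6.11% of 1816 in the right arm were members, so both arms were below the centre. Per length, the left arm held 16.1 members per Mb, the right arm 15.9 and the centre 23.9.

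**Figure D1:**
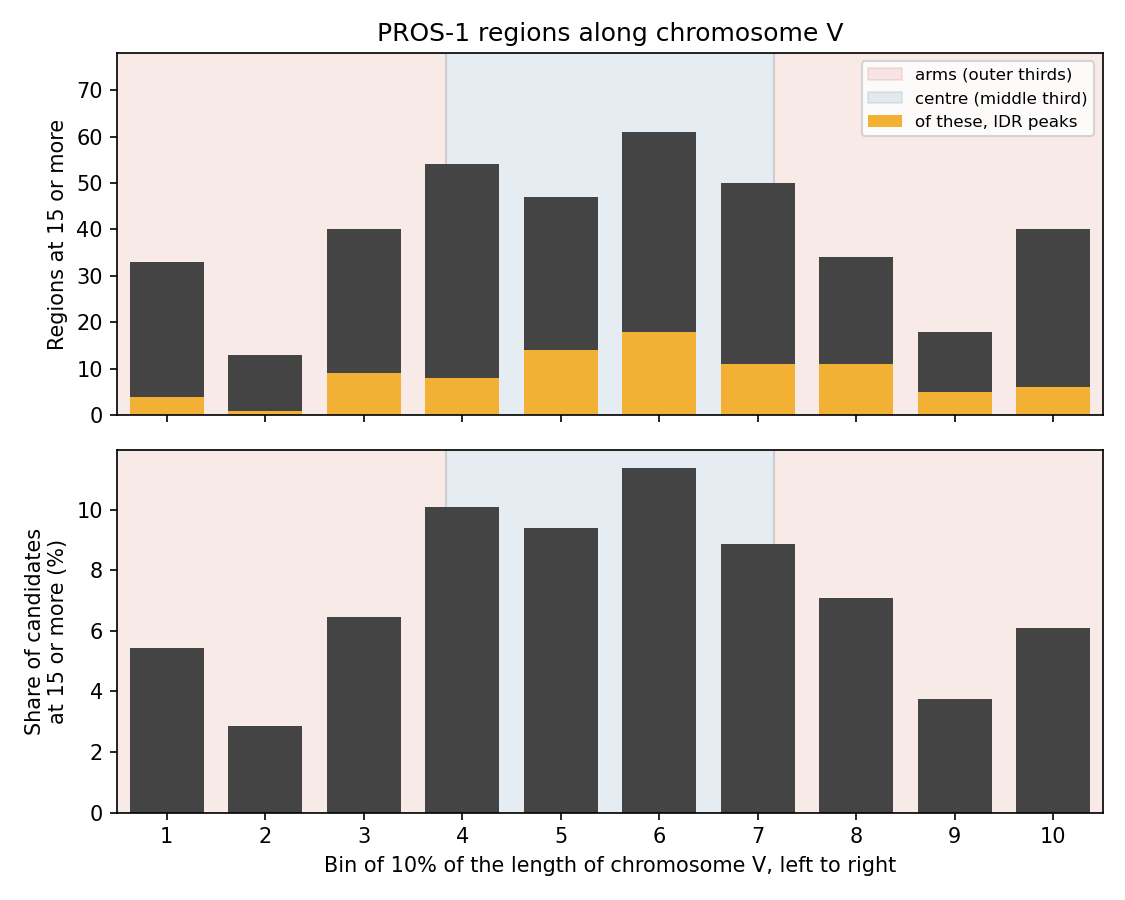
Number of regions with a signal value of 15 or more (upper panel, with those in the authors' IDR list in yellow) and their share of all candidates in percent (lower panel) in each of 10 equal bins along chromosome V, with arms and centre shaded. The lowest counts, 13 and 18, fall in the second and the ninth bin, inside the arms, and the highest, 61, in the sixth.

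The profile along the chromosome was not a smooth slope from centre to ends. From left to right 10 equal bins of its length held 33, 13, 40, 54, 47, 61, 50, 34, 18 and 40 members. The second and the ninth bin were the emptiest, with 2.86% and 3.74% of their candidates at 15 or more, while the outermost bins had 5.43% and 6.10%. The sixth bin was the fullest, with 11.4%. The member nearest the left end lay at chrV:8777-9100, 200 bp upstream of B0348.10, with a pooled signal value of 41.9.

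Of all members, 57.2% lay in the arms (223 of 390, exact 95% interval 52.1 to 62.1%, for counting error only). The arms held 69.5% of the chromosome V candidates below 15 (3507 of 5046) and 64.0% of its protein-coding genes (3196 of 4994). The count depended on how high the signal was required to be. With a threshold of 20 the arms held 49.7% of regions, and with 25 they held 46.6%.

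Arm members also had lower values within the selected range. The pooled signal value of arm members ran from 15.01 over a median of 17.8 to 105.5, and that of centre members from 15.004 over 20.6 to 105.4. The top values were thus alike, and the zones parted in the middle of the range, as the plot of the share of regions above each value shows. At 50 or more there were 9 arm regions (5 in the left arm, 4 in the right) and 7 centre regions. The −log10 q-value had a median of 1.39 in the arms and 1.85 in the centre, and the weakest member had a q-value of 0.130, so a value of 15 is a loose criterion.

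**Figure D2:**
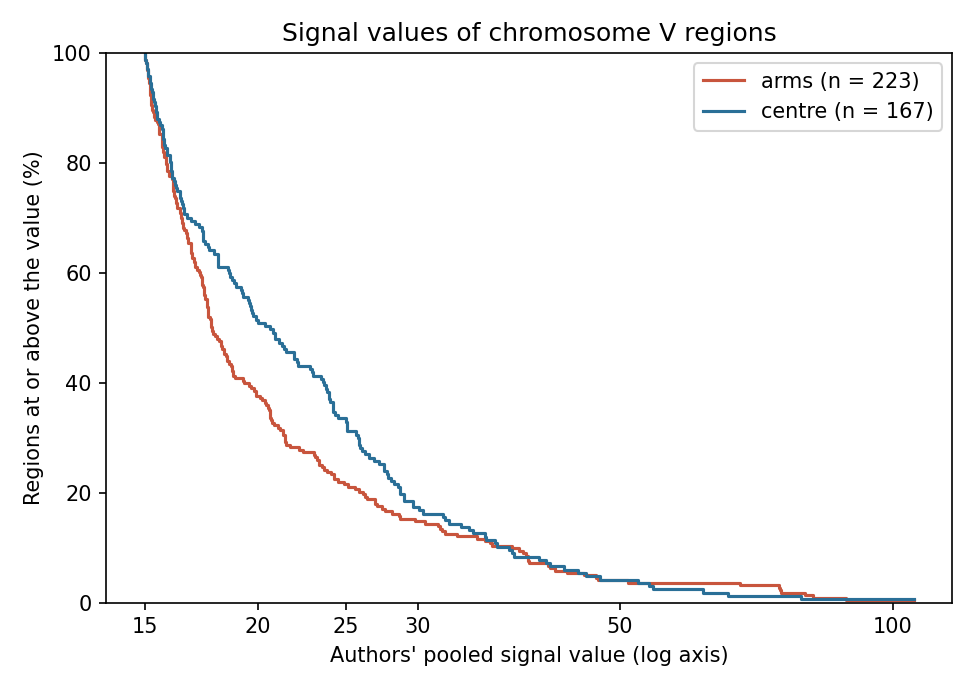
Share of regions (vertical axis, percent) with at least a given pooled signal value (horizontal log axis) for 223 arm and 167 centre regions of chromosome V. The curves start together at 15, separate in the lower range (medians of 17.8 in the arms and 20.6 in the centre) and meet again at the top values.

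Of the 390 members, 87 (22.3%) were in the authors' IDR list, which was made from both replicates. On chromosome V this list amounted to a cut of pooled signal value. It held every member at 26.46 or more and none at 26.37 or less, so it is no separate check of single regions. Among these 87, 1 had no summit within 100 bp in either replicate. Over all chromosomes 27.3% of the regions at 15 or more were in the list. In the arms 42 of 223 (18.8%) were, and in the centre 45 of 167 (26.9%), which is near that background. These shares restate the lower pooled signal values of the arm members. The left arm had 17 of 112 (15.2%) and the right arm 25 of 111 (22.5%).

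The replicates carried the members unequally. A replicate 2 summit lay within 100 bp of 205 arm regions (91.9%) and 152 centre regions (91.0%), whereas a replicate 1 summit did so for 139 arm regions (62.3%) and 110 centre regions (65.9%). Both replicates had one at 57.0% of arm and 60.5% of centre regions, and neither did at 6 arm and 6 centre regions. Among the 2703 strongest candidates of each replicate, as many as there were pooled regions at 15 or more, 39 arm members (17.5%) and 38 centre members (22.8%) were present in both lists. In both zones replicate 2 had a summit at more of the members than replicate 1. Since the reads of both replicates make up the pooled list, these figures describe the selection and are not a second measurement.

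**Figure D3:**
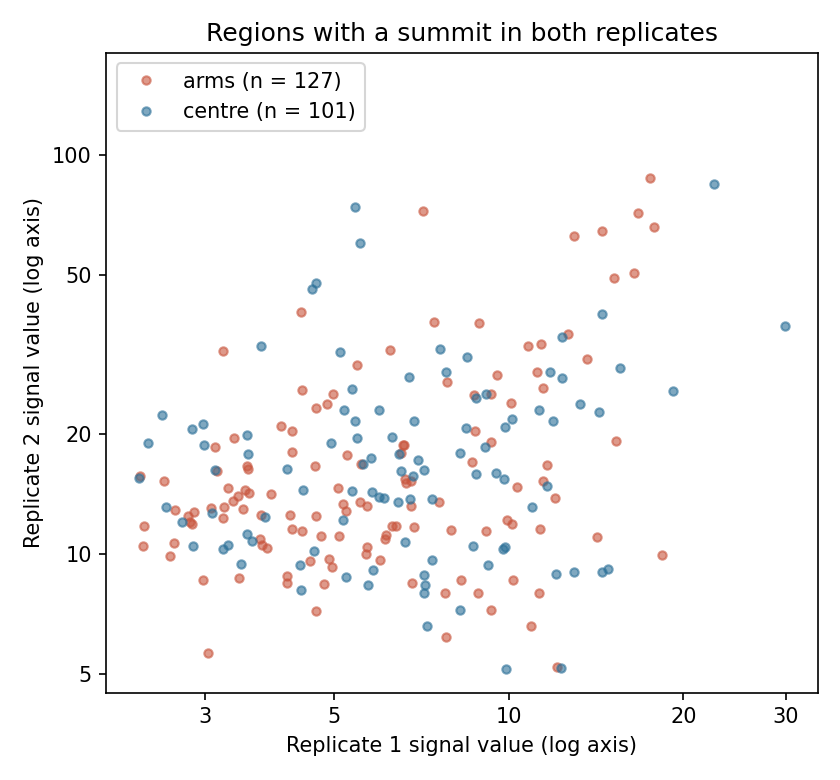
Signal value in replicate 2 against replicate 1 (both log axes, each replicate on its own scale) for the 57.0% of arm and 60.5% of centre regions with a summit within 100 bp in both. Arm and centre points overlap over most of the range.

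Promoters made up less of the arm regions. The summit lay in a promoter window, from 1000 bp upstream to 200 bp downstream of a protein-coding transcript start, in 87 of 223 arm regions (39.0%) and 91 of 167 centre regions (54.5%). The odds ratio was 0.535 (95% interval 0.349 to 0.819), with an adjusted p = 0.0167 by a two-sided Fisher's exact test, with Benjamini-Hochberg values taken over 10 annotation and sequence features. Both arms were below the centre, at 37.5% in the left and 40.5% in the right. Candidates below 15 differed the same way but by less, with 31.1% in the arms and 37.2% in the centre. Regions are the unit of these tests and not samples, and neighbouring regions may not be independent.

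The promoter difference lay among the weaker members. Between 15 and 20, 42 of 139 arm regions and 41 of 82 centre regions lay in a promoter window. Between 20 and 25 the shares were 41.7% of 36 arm regions and 60.0% of 30 centre regions. At 25 or more they were 62.5% of 48 arm regions and 58.2% of 55 centre regions, so the direction turned. Among IDR peaks the arms were 6.51 points above the centre (adjusted p = 0.826, exact test), and with a threshold of 20 they were 5.25 points below (adjusted p = 0.818). By the same exact test the call was also lost with promoter windows of 500 bp to 100 bp (adjusted p = 0.128) and of 2000 bp to 500 bp (adjusted p = 0.0759), and in replicate 1's own list (adjusted p = 0.103), where the arms stayed lower.

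**Figure D4:**
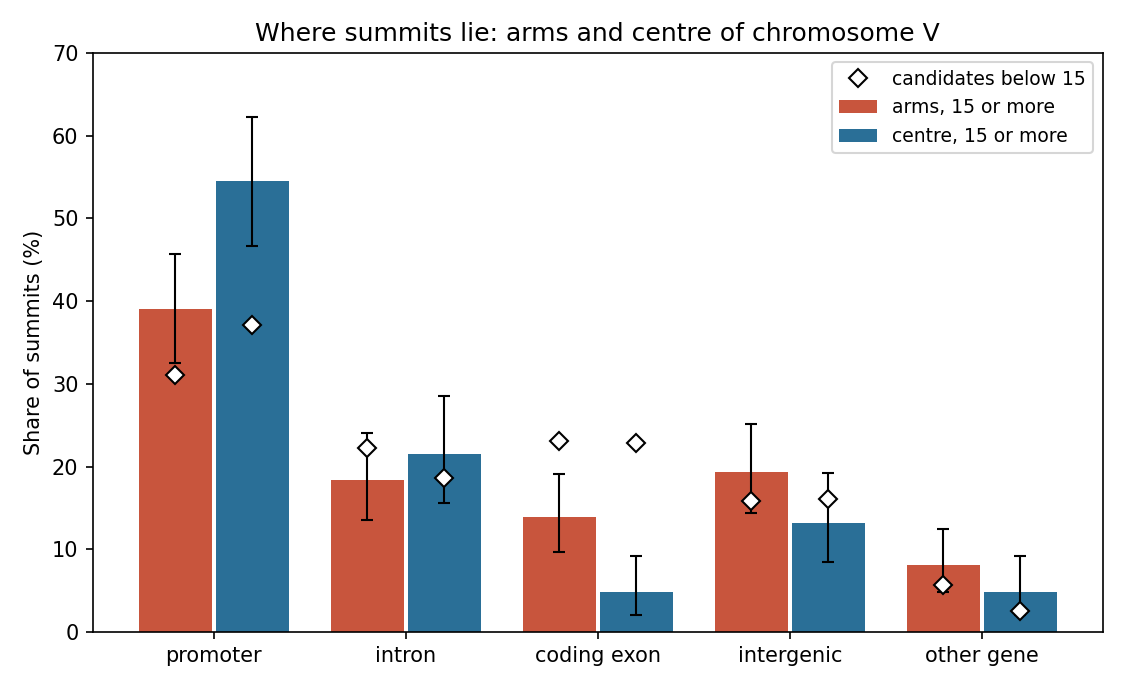
Share of summits (vertical axis, percent) in promoter windows, introns, coding exons, between genes and in other (mostly non-coding) genes, for arm (left bars) and centre (right bars) regions at 15 or more, with exact 95% intervals for counting error. Diamonds give candidates below 15 in the same zone; UTR summits, 3 in the arms and 2 in the centre, are left out.

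Coding exons held more of the arm regions, 31 of 223 (13.9%), than of the centre regions, 8 of 167 (4.79%), with an odds ratio of 3.20 (1.39 to 8.29) and an adjusted p = 0.0167 by the same Fisher's exact test. Below 15 the shares were 23.1% in the arms and 22.9% in the centre. None of these 39 regions was in the IDR list, which follows from their pooled signal values of 26.37 or less. Of the 39, 5 had a value of 20 or more, all in the arms. By the exact test the call did not hold with a threshold of 20 (5.95 points, adjusted p = 0.230), in replicate 1's own list (3.43 points, adjusted p = 0.455) or with either other promoter window (adjusted p = 0.0984 and 0.0759).

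Single genes accounted for several of these exonic regions, which were picked out here after their values were seen. Exons of dpy-21, a dosage-compensation gene on the right arm that encodes a histone demethylase, held 3 regions with pooled signal values of 23.5, 23.3 and 17.0. Exons of vha-13, a subunit of the vacuolar proton pump, held 2 (21.2 and 17.3), and a further region lay 535 bp upstream of its start (39.6). The highest exonic value, 26.4 (7.59 in replicate 1, 13.5 in replicate 2), was in icl-1, an enzyme of the glyoxylate cycle, on the left arm. In the centre the highest was 19.7, in pqn-63.

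Introns and the space between genes differed by less. Introns held 18.4% of arm and 21.6% of centre regions (adjusted p = 0.622), and intergenic summits were 19.3% and 13.2% (adjusted p = 0.327, both by Fisher's exact test). Summits in divergent promoter windows, with starts of 2 genes on opposite strands, made up 10.3% of arm and 13.8% of centre regions (odds ratio 0.721, 0.370 to 1.40). The median distance to the nearest protein-coding start was 1022 bp for arm members and 634 bp for centre members, and 1058 bp and 890 bp for candidates below 15. Starts were over 2000 bp away for 64 arm regions (28.7%) and 30 centre regions (18.0%), against 28.9% and 21.4% of candidates below 15, so the arm members were near the rate of their zone. Within promoter windows the position was similar, with 77 of 87 arm summits and 81 of 91 centre summits upstream of the start, at medians of 159 and 210 bp upstream.

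The rates at which candidates reached 15 also differed by kind of site. In promoter windows 7.39% of 1178 arm candidates and 13.7% of 663 centre candidates did. In introns the rates were 5.01% of 819 in the arms and 11.2% of 322 in the centre. In coding exons they were 3.68% of 842 in the arms and 2.22% of 360 in the centre, and between genes 7.19% of 598 and 8.15% of 270. In other, mostly non-coding, genes they were 8.33% of 216 in the arms and 17.0% of 47 in the centre. The rate was thus lower in the arms in each of these kinds but coding exons, as a description of the selection.

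Genes near members followed the same split. A member summit lay in the promoter window of 109 of 3196 protein-coding genes of the arms (3.41%) and 118 of 1798 of the centre (6.56%). The 6 large families listed here (chemoreceptors, nuclear hormone receptors, C-type lectins, F-box genes, cytochromes P450 and UDP-glucuronosyltransferases) made up 31.7% of arm genes and 16.6% of centre genes, and 8 of their 1014 arm genes and 3 of their 299 centre genes had a member. Outside these families 4.63% of 2182 arm genes and 7.67% of 1499 centre genes did. The difference between the zones was therefore also present among genes outside the families, without a test.

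Chemoreceptor genes, which encode the G-protein-coupled receptors of sensory neurons, had a member in the promoter window at 3 of 682 arm genes and 2 of 208 centre genes. The 4 with the highest pooled signal value were srh-89 (28.0, centre), str-12 (21.3), srw-1 (17.5) and srm-6 (16.1), the last 3 on the right arm. The srh-89 region was nearer to F25E5.1, at 208 bp, than to srh-89, at 880 bp. The srw-1 summit lay inside plc-2, 866 bp from srw-1. The str-12 region lay also 194 bp upstream of the F-box gene fbxa-153. The other F-box gene was fbxa-90 (39.6), 967 bp from a summit that was nearer to efl-1, an E2F-family gene, at 172 bp. nhr-95 (21.05, right arm) and nhr-136 (16.0, centre) were the nuclear hormone receptors, clec-206 (15.9) the C-type lectin and ugt-12 (15.9) the UDP-glucuronosyltransferase, both on the left arm. None of 41 cytochrome P450 genes, 31 collagen genes or 4 aminoacyl-tRNA synthetase genes had one in the promoter window. Summits inside a gene are not in these counts, such as those in exons of the left arm collagen genes col-140 (17.1) and col-139 (15.1).

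Some groups of broadly expressed genes had members in their promoter windows more often than the 4.55% of all protein-coding genes of chromosome V, again without a test. Of the 8 ribosomal protein genes of chromosome V, 5 had one, 3 of 5 in the arms and 2 of 3 in the centre. The centre pair rps-30 and rpl-39 shared a region with a pooled signal value of 38.3 (8.47 in replicate 1, 31.2 in replicate 2), and rps-27 (18.1) and rpl-38 (17.0) in the arms were weaker. The rps-27 region was nearer to picd-1, at 153 bp, than to rps-27, at 595 bp. Histone genes had one at 2 of 4 arm genes and 3 of 23 centre genes. These were his-3 and his-4, which shared a right arm region (22.2), his-35 and his-41, which shared a centre region (16.2), and his-37, a centre gene (43.5). Chaperone genes had one at hsp-90 (42.5) and cct-7 (41.7), a subunit of the cytosolic chaperonin, among 8 arm genes, and at none of 6 centre genes. Both of these summits were nearer to a start of another gene. C47E8.4 lay at 300 bp against 375 bp for hsp-90, and T10B5.4 at 159 bp against 280 bp for cct-7. The homeobox genes named ceh are listed apart from these broadly expressed groups. Of them, 1 of 5 in the arms (ceh-74 on the right arm, 39.2) and 1 of 7 in the centre (ceh-27, 18.1) had one.

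Small non-coding RNA genes were near a larger share of members than of candidates below 15 in both zones, without a test. A tRNA, snoRNA, snRNA or rRNA gene lay within 200 bp of 14 arm summits (6.28%) and 13 centre summits (7.78%), against 0.599% and 0.975% of candidates below 15. The difference between arms and centre did not pass the test (odds ratio 0.794, 0.335 to 1.89, adjusted p = 0.764, Fisher's exact test). By gene, 7 of 24 snoRNA genes in the arms and 9 of 31 in the centre had a member that near, as did 8 of 54 and 4 of 24 tRNA genes. No member lay near any of the 12 SL RNA genes or 15 rRNA genes, all of them in the arms. Over all these kinds together 29 of 188 genes (15.4%) had a member that near. Whether reads could be placed at the SL RNA and rRNA genes was not tested. Regions near a snoRNA gene had median pooled signal values of 36.0 in the arms (7 regions) and 43.3 in the centre (8 regions), both above the medians of all members in their zone. Peaks of an untagged strain or of other tagged factors were not analysed here, so whether these regions are particular to PROS-1 was not tested.

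When every annotated non-coding biotype was counted, an alternative chosen after the data were seen, 45 arm regions (20.2%) and 55 centre regions (32.9%) had such a gene within 200 bp. The odds ratio was 0.516 (0.317 to 0.837) and the adjusted p = 0.0165 by Fisher's exact test. Candidates below 15 differed in the same direction and in proportion by more, with 4.96% in the arms and 12.3% in the centre. The difference was thus not particular to members.

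Base composition differed between members and candidates below 15 more than between the zones, without a test. Windows of the same size around the summits of members averaged 49.2 ± 8.06% GC in the arms (SD over 223 regions) and 46.7 ± 7.60% in the centre (167 regions). Windows of candidates below 15 averaged 40.3 ± 9.10% and 38.4 ± 8.04%. Repeats were scarcer in members: 12 arm windows (5.38%) and 4 centre windows (2.40%) were at least 50% repeat-masked, against 701 of 3507 and 155 of 1539 candidates below 15.

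Of the 4 motifs searched on both strands in these windows, GA runs were in the most arm windows. GAGAGAG, of which overlapping matches in a window were counted once, was in 34 arm windows (15.2%) and 14 centre windows (8.38%). That difference did not pass the adjusted threshold (odds ratio 1.96, 0.984 to 4.11, adjusted p = 0.146, Fisher's exact test). Of windows below 15, 2.48% in the arms and 2.21% in the centre held it. At pooled signal values of 25 or more it was in 12 of 48 arm windows and 8 of 55 centre windows. Of the windows printed above, those of T19F4.6, Y59A8B.24 and the W06H8.6 intron hold it.

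The Prospero-type motifs AAGACG or AAGGCG were in 20 arm windows (8.97%) and 19 centre windows (11.4%), against 6.24% and 7.34% of windows below 15 (adjusted p = 0.622 for arms against centre, Fisher's exact test). The zones changed places with signal. Between 15 and 20 the motif was in 9 of 139 arm windows (6.47%) and 15 of 82 centre windows (18.3%), and at 25 or more in 8 of 48 arm windows (16.7%) and 1 of 55 centre windows (1.82%). With a threshold of 25 the arms were 14.8 points above the centre, which did not pass the threshold (adjusted p = 0.115, Fisher's exact test). The windows upstream of W06H8.6 and near pptr-1, each the strongest of its arm, hold one match each. GGGCGG was in 6.28% of arm and 4.19% of centre windows (3.02% and 1.62% below 15), and the homeodomain motif TAATTA in 2.69% and 2.99% (2.85% and 4.16% below 15). A match of letters is not a site of binding.

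The median gap between neighbouring summits was 29841 bp in the arms and 20944 bp in the centre, and 5 arm gaps and 2 centre gaps were under 1000 bp. The densest stretch lay in the left arm, with 5 members in 10000 bp (summits at chrV:6342689-6351269) and 8 in 50000 bp (summits at chrV:6342689-6359699). The longer stretch covers the upstream side and first part of bcl-11, the worm counterpart of the BCL11 zinc-finger factors, which is named here after its values were seen. The shorter one does not reach this gene, since its last summit lay 4756 bp upstream of a start of bcl-11. The 8 regions had pooled signal values of 15.1 to 25.6, too low for the IDR list, and 1 lay in the promoter window of bcl-11.

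The split of the other chromosomes, taken with the same threshold and the same 3 lengths, is given beside that of chromosome V as a description. The arms of V held 57.2% of its 390 members, against 60.4% of 1727 regions on chromosomes I to IV. One by one the other autosomes had 60.5% (I), 60.2% (II), 60.4% (III) and 60.6% (IV), and X had 69.6% of 586 regions. Candidates below 15 were closer to each other, with 69.5% in the arms of V, 68.5% on I to IV together and 68.4% on X. The distance between V and the autosomes moved with the choice of regions. V minus I to IV was -3.21 points at a threshold of 15, -8.76 at 20, -11.7 at 25 and -8.93 among IDR peaks. When only the outermost 25% of length at each end was taken as arm, V held 34.1% of its members there and the difference was -8.80 points.

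**Figure D5:**
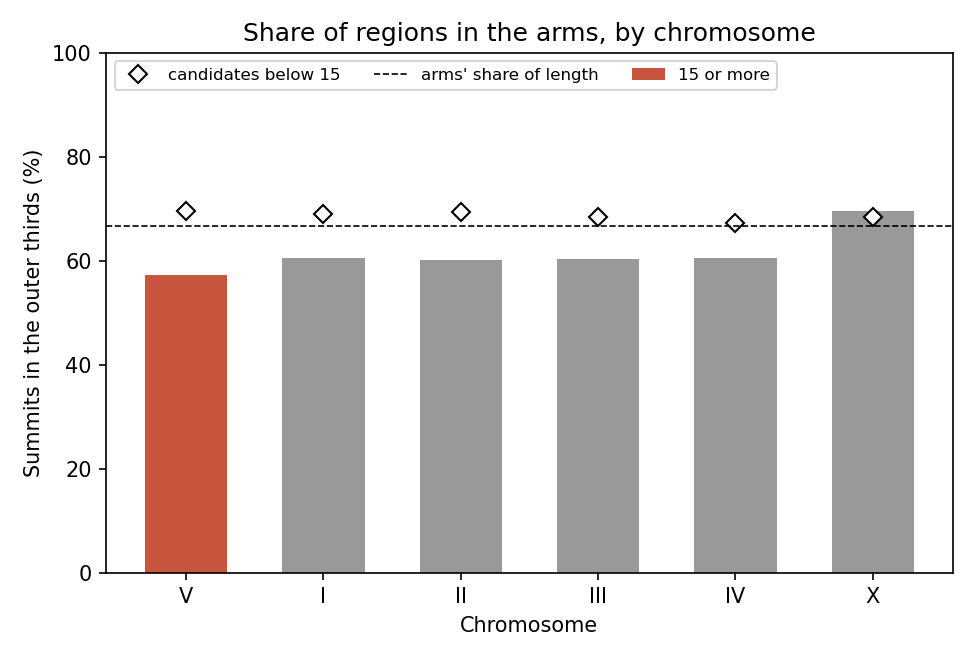
Share of regions at 15 or more with their summit in the outer lengths of the chromosome (bars, percent; V in red) and of candidates below 15 (diamonds), with the arms' share of length as a dashed line. Chromosome V is at 57.2%, I to IV lie between 60.2 and 60.6%, and X is at 69.6%.

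The members nearest the threshold were of several kinds. Just inside it were regions at egl-3, which encodes a prohormone convertase (pooled signal value 15.004, centre), twk-32, a potassium channel (15.005, centre), and in an exon of R02D5.1 (15.005, right arm). Just outside were regions near dmsr-1, a neuropeptide receptor (14.981, centre), ZC412.10 (14.977, right arm) and srh-16, a chemoreceptor (14.964, centre).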

How the data were processed

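Candidate regions, peaks and background together, were called on each replicate and on both replicates' alignments pooled, each with a control, and an IDR-thresholded list was made from them, per the text files the authors deposited. The aligner, caller and IDR threshold are not given in the sources used here, and read depth is unknown. The deposited signal value is a score relative to the control, and the deposited significance column is the −log10 of the q-value. Members and lists were chosen with earlier results of these data known.

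Each list holds 30000 regions. Summits of the ce11 lists were annotated with Ensembl release 115 gene models of WBcel235, and sequence was read from the RefSeq genome of the same assembly. A promoter window took precedence over exons (5' UTR before coding, 3' UTR last), exons over introns of coding genes, and these over non-coding genes; the rest was intergenic. Fisher's exact test (two-sided, scipy 1.17.1, with pandas 2.3.3) compared arms with centre for 10 features, with Benjamini-Hochberg adjustment and a threshold of 0.05. The same test was run for the arm share of chromosome V against other chromosomes, but signal and position selected the members, so its p-values are not given. The comparison of arms with centre was tested on simulated data with independent regions and features, and the comparison of chromosomes was not. Intervals for shares are exact (Clopper-Pearson, 95%) and cover counting error only. Non-coding genes near summits were those of the tRNA, snoRNA, snRNA and rRNA biotypes, a list read from the gene lists of the design.

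Genes were named for the 10 strongest regions of the arms and of the centre and for the 3 regions on each side of the threshold: up to 2 genes whose promoter window held the summit, else the gene around it, else the nearest coding start. Up to 4 genes per gene list were named by signal, as were non-coding genes within 200 bp. The histone genes exceed this limit, since his-35 and his-41 share a region and both were named. Alternatives were thresholds of 20 and 25, the IDR list, the outermost 25% of length at each end as arms, merging within 1000 bp, each replicate's own list, other promoter and sequence windows, a distance of 500 bp for non-coding genes, and the ce10 list for the number of members. The replicates' own lists held 433 regions of chromosome V for replicate 1 and 381 for replicate 2. In replicate 1 a value of 15.3 already had rank 122 over all chromosomes, so its list was not cut at 15.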

Additional observations from a re-analysis of the deposited data

How the results depend on the processing

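The share of members in the arms, 57.2%, was 49.7% with a threshold of 20, 46.6% with 25 and 48.3% among IDR peaks, and 34.1% with only the outermost 25% of length at each end as arms, which are shorter than the outer lengths used above by construction. In the replicates' own lists it ranged from 56.8% to 57.2%. On chromosome V the IDR peaks are the members at 26.46 or more. They are thus part of the set at 25 or more, and these 2 alternatives are not separate checks. The ce10 list gave 368 members in place of 390. The arm share of V minus that of I to IV, -3.21 points, was -8.80 with those shorter arms, -8.76 and -11.7 with thresholds of 20 and 25 and -8.93 among IDR peaks, and from -4.77 to -4.58 in the replicates' lists. Against I, II, III and IV singly the shorter arms gave -10.4, -8.79, -7.58 and -8.23 points. V minus X was -12.4 points and ran from -21.2 to -8.96 over the alternatives run.

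Of the 10 features, 2 differed between arms and centre. By Fisher's exact test the count was 0 with thresholds of 20 and 25 and among IDR peaks (1 feature each before adjustment) and 0 with both other promoter windows (3 each before adjustment). In the replicates' own lists it ranged from 0 to 2, with 0 in that of replicate 1 (2 before adjustment). It was 3 when all non-coding biotypes were counted, an alternative added after the data were seen. The promoter difference was -15.5 points. It was -5.25 with a threshold of 20, 4.32 with 25 and 6.51 among IDR peaks, and -11.1 and -12.4 with the shorter and longer promoter windows. In the replicates' own lists it ranged from -16.5 to -12.1, and its adjusted p over all alternatives ran from 0.0165 to 0.863. The coding exon difference, 9.11 points, was 5.95 with a threshold of 20, 2.08 with 25 and 0 among IDR peaks, which held no coding exon region. It was 8.66 and 6.12 with the other promoter windows, and from 3.43 to 10.7 in the replicates' lists.

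Features that did not pass the threshold also changed sign. The difference for the Prospero-type motifs, -2.41 points, was 8.39 with a threshold of 20, 14.8 with 25, 14.4 among IDR peaks, and 3.85 and 2.72 in the lists of replicate 1 and replicate 2. That for TAATTA was 1.20 with a threshold of 20 and ranged from -1.58 to 0.763 in the replicates' lists. Divergent promoters had 0.168 with a threshold of 20. In the replicates' lists introns ranged from -3.43 to 2.57 and intergenic summits from -1.09 to 8.22. The cause of these changes was not tested. Read depth is unknown, and the sets above 20 hold 169 regions or fewer, which limits what they can show. No paired analysis was possible because all samples belong to 1 group.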
